A study of Mus musculus with 2 samples.

Results

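The genes described here build and run the primary cilium: the intraflagellar transport (IFT) trains, their motors, the BBSome, the small GTPases of the ARL family that work with them, and proteins of the transition zone and basal body. They were chosen by name from these roles, 39 genes in all. The rule uses no measured value, but the choice was made with earlier results of these data known. Of the 39, 37 have a row in the expression table of 10666 genes. They were above 0 in 2.14% (*Wdr19*, exact binomial 95% interval 1.78 to 2.55) to 91.6% of cells (*Arl3*, 90.9 to 92.4) of culture 1 and in 1.32% (1.06 to 1.61) to 84.9% (84.1 to 85.7) of culture 2, with intervals that cover counting error only. *Bbs10* and *B9d2* were not analysed here. The question asked was how the level of each gene varied along the cell-cycle position of single cells, within each culture.

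The data are single-cell RNA-seq libraries of 2 replicate cultures of wild-type C57BL/6 cortical neurospheres, in which neural stem cells and progenitors grow in suspension as balls of cells. The dorsal telencephalon was taken at embryonic day 14.5, and the cells were cultured with EGF and bFGF (10 ng/ml each) and prepared with the 10x Chromium 3′ kit. The labels and the methods name different versions of this kit. Both cultures belong to 1 condition, with no treatment or mutant beside it, so the comparisons are between cells at different positions. Culture 1 has 5748 cells with a median of 19477 UMIs per cell, culture 2 has 7057 cells with a median of 14637, and 48 cell barcodes occur in both libraries.

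A primary cilium is a single microtubule-based antenna that grows from the mother centriole of a cell that is not dividing, and in neural progenitors it projects into the ventricle and carries receptors such as those of the Hedgehog pathway. IFT-B trains with kinesin-II carry cargo to the tip, IFT-A trains with dynein-2 carry it back, and the BBSome loads membrane proteins for removal. The transition zone at the base acts as a gate, and the cilium is taken down before mitosis so that its centriole can serve a spindle pole.

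Each cell has a position between 0 and 2π that the authors deposited with the data. Following the methods, it is the polar angle of the cell in a projection made from cell-cycle genes, and whether any of the ciliary genes was among those genes is not given in the sources used here. Cells were divided into 8 classes of 0.25π. The G1/G0 arc runs from 1.5π through 2π to 0.25π, and it holds 2523 cells of culture 1 (43.9%) and 4180 of culture 2 (59.2%). Cell-cycle genes were the input of the projection, *Top2a* among them by the study's own account, so their order along it is in large part set by construction and is given as a description. *Pcna*, the replication clamp, had its highest class mean at 0.75π to 1π in both cultures (6.48 and 7.39). *Top2a*, which untangles chromosomes before mitosis, had its highest class mean at 1π to 1.25π (6.77 and 7.90), and so did *Cdc20*, which activates the anaphase-promoting complex (7.17 and 5.27). All values are normalized values on a linear scale unless log2 is stated.

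The labelled cell type was checked against its markers. Of 10 radial glia and neural progenitor markers 8 have a row, and *Fabp7* was above 0 in every cell of culture 1 and in 99.96% of culture 2. The share of cells above 0 was lowest for *Pax6* (21.1% in culture 1 and 23.1% in culture 2). It was 44.5% and 50.5% for *Hes1*, and 47.3% and 37.0% for *Notch1*. Of the 8, *Pax6* was called lower in the arc and 0 were called higher. With class means taken on the linear scale before the logarithm, 2 of the 8 were called higher and 1 lower. The 8 markers summed to 149 in the G1/G0 arc and 143 in the rest in culture 1, and to 147 and 134 in culture 2. Most of these sums was *Fabp7*, at 94.4 and 90.0 in culture 1 and 91.8 and 89.1 in culture 2. Of 14 markers of multiciliated ependymal cells, which carry many motile cilia, only *Ccdc39* and *Ccdc40* have a row. *Ccdc39* was above 0 in 2.12% and 0.879% of cells and *Ccdc40* in 1.04% and 0.482%. *Foxj1*, the regulator of motile cilia, has no row. Of 13 neuroblast and neuron markers 5 have a row, with a summed value of 3.004 in the G1/G0 arc and 2.81 in the rest in culture 1, and of 2.73 and 2.70 in culture 2. Of these 5, 2 (*Map2* and *Elavl4*) were called lower in the arc and 0 higher. On linear class means 0 of the 5 were called lower and 1 higher. Of 6 astrocyte markers 3 have a row, with a summed value of 1.95 in the arc and 1.32 in the rest in culture 1, and of 1.48 and 1.1503 in culture 2, and 2 of the 3 (*Aldh1l1* and *S100b*) were called higher in the arc. Of 7 oligodendrocyte progenitor markers 5 have a row, with a summed value of 6.80 and 5.68 in culture 1 and of 6.22 and 5.95 in culture 2. Most of these sums was *Olig2*, at 6.30 and 5.25 in culture 1 and 5.62 and 5.49 in culture 2. It was above 0 in 97.3% and 91.9% of cells. The others were above 0 in between 0.751% (*Sox10*, culture 2) and 13.7% (*Cspg4*, culture 2) of cells. Of 8 microglia, endothelial and blood markers 0 have a row. *Sox2*, *Hes5*, *Tubb3* and *Olig1* of the other lists have no row either. A missing row was therefore not read as absence of a gene or of a cell type. The part of these cell types in the results below was not tested.

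Some of the ciliary genes varied along the position, and those called went in opposite directions. A moderated F-test over the 8 classes with limma, in which culture is a term and the error is the disagreement between cultures, called 13 of the 37 (35.1%) at an adjusted p below 0.05. Over all genes, 46.4% were called, a larger share than among the ciliary genes. In the contrast of the G1/G0 arc with the rest, 4 of 37 were called higher in the arc (10.8%, with 18.5% of all genes) and 8 of 37 lower (21.6%, with 27% of all genes). The median difference was about 0 for the ciliary genes (-4.4e-05 on the log2 scale) and -0.0011 over all genes. With a pseudocount of 0.1 in place of 1, 3 were called higher and 12 lower (1317 and 3551 of all genes, and 1969 and 2885 with 1). The 2 cultures had the same direction for 31 of the 37, or 83.8%, and for 80.6% of all genes.

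These differences were small beside the spread between cells. A curve of 2 harmonics of the position explained at least 5% of the variance of log2(value + 1) between cells, in both cultures, for 428 genes (4.01%) and for 0 of the 37. The nearest was *Ift27*, with an R² of 0.048 in culture 1 and 0.0401 in culture 2, followed by *Arl3* with 0.0242 and 0.0147. The profile over the 8 classes was also less alike between cultures than for most genes, with a median Pearson's r of 0.236 for the ciliary genes and 0.533 over all genes. These correlations are over the 8 classes of a pair of libraries and are descriptions only.

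**Figure D1:**
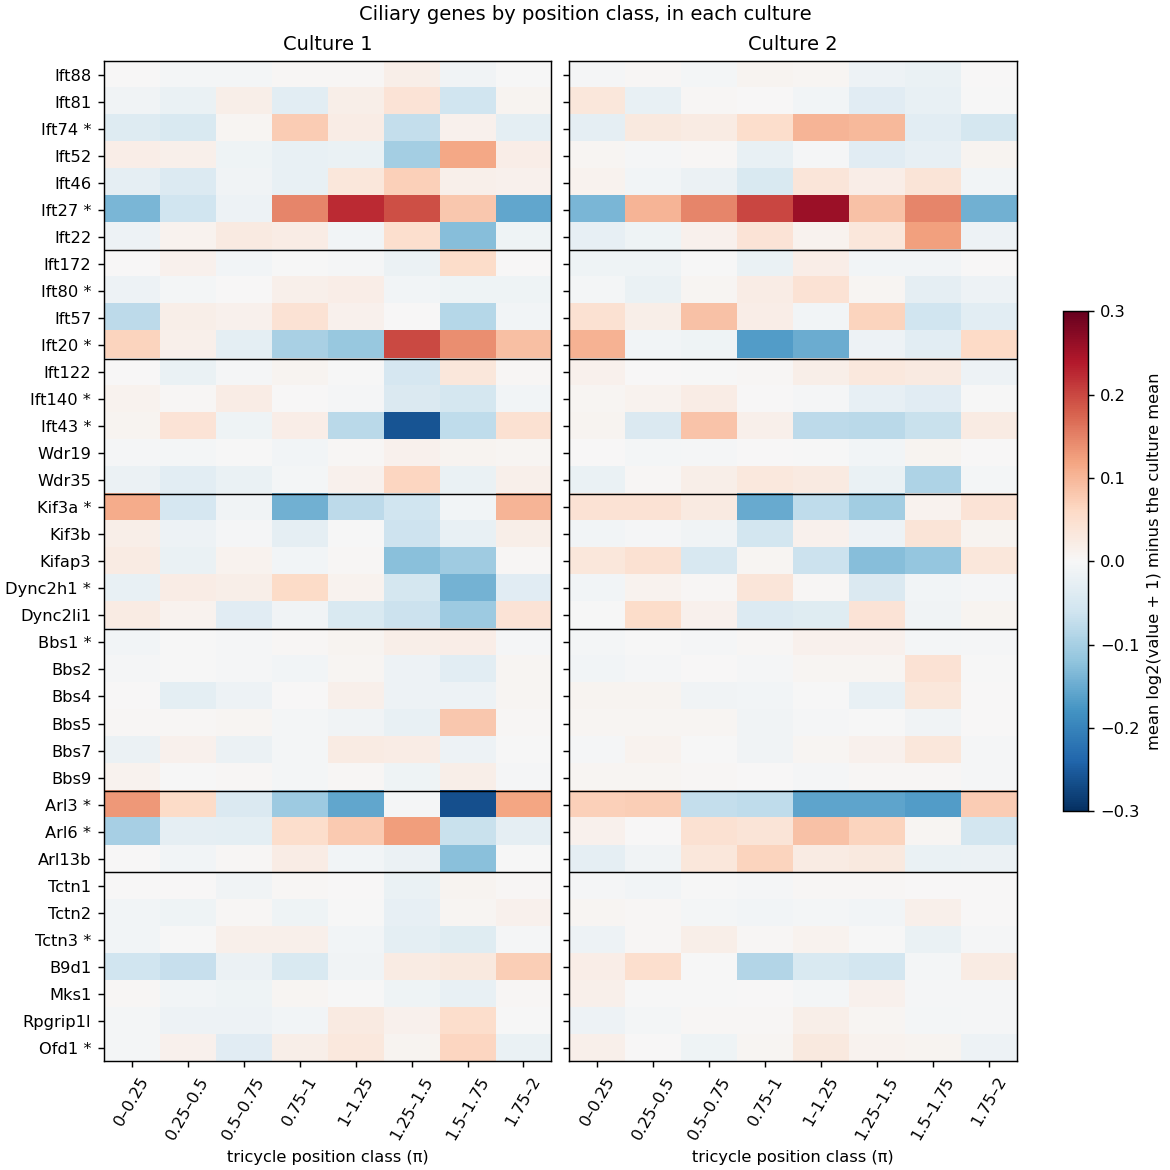
Heat maps of the 37 genes (rows, grouped by complex) in 8 position classes (columns, in units of π) of culture 1 and culture 2. Colour gives the class mean of log2(value + 1) minus the mean of that culture, and * marks the 13 genes called over the classes. *Ift27* is lowest on either side of 2π in both cultures, *Arl3*, *Ift20* and *Kif3a* are high there, and most other rows are pale.

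**Figure D2:**
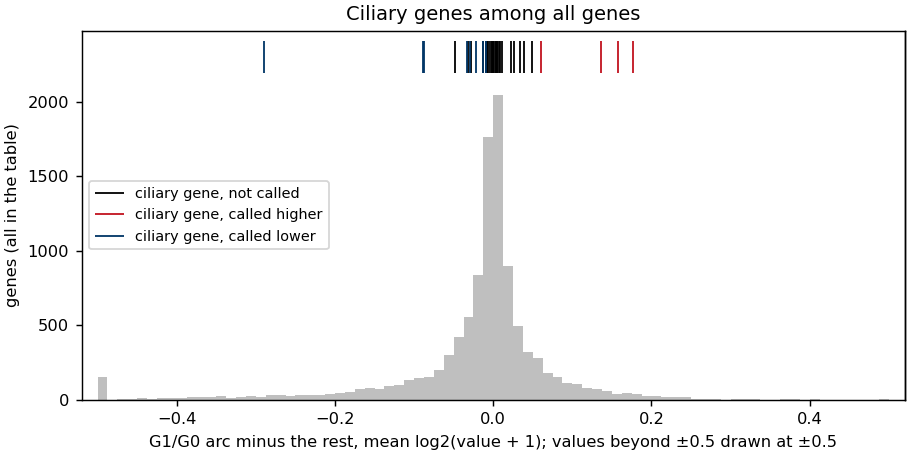
Histogram of the difference between the G1/G0 arc and the rest, in mean log2(value + 1), for all 10666 genes, with the 37 ciliary genes as lines above it. Most lines lie close to 0, with *Ift27* at -0.29 as the lowest and *Arl3* at 0.18 as the highest.

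The scale of the values changed the split of calls. Cells of the G1/G0 arc had fewer UMIs, with a median of 18238 against 21096 in culture 1 and of 14051.5 against 15987 in culture 2, and the part of this in the calls was not tested. When class means were taken on the linear scale before the logarithm, 10 ciliary genes were called higher (27.0%, with 25.5% of all genes) and 5 lower (13.5%, with 22.2% of all genes), where the main scale gave 4 and 8. Over all genes, 53.5% of calls were higher on this scale and 40.6% on the main scale. All 4 genes called higher remained so and 6 more joined them, while 5 of the 8 called lower remained. The genes that held their call on both scales are therefore *Ift20*, *Arl3*, *Kif3a* and *B9d1* on the higher side, and *Ift27*, *Ift80*, *Ift74*, *Arl6* and *Bbs1* on the lower side, some of which lost it under other settings named with each gene.

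The promoters of the genes with the smallest p of the class test are shown to place these genes beside the known regulators of cilium genes. The RFX factors bind an inverted repeat, the X-box, of which GTTGCC is a common form of 1 half-site. RefSeq promoters (GRCm38.p6, 250 bases before to 50 after the start) matched 33 of the 37 genes by symbol, and *Ift80*, *Ift81*, *Ift122* and *Dync2li1* had none. The 150 bases before the start are given 5′ to 3′ on the strand of the gene, with GTTGCC or its complement GGCAAC in capitals. They are at chr15:78174082-78174231 (minus strand) for *Ift27*, chr11:78536211-78536360 (plus) for *Ift20*, chr19:46573183-46573332 (minus) for *Arl3*, chr17:25015936-25016085 (plus) for *Ift140* and chr11:53567219-53567368 (plus) for *Kif3a*.
Ift27: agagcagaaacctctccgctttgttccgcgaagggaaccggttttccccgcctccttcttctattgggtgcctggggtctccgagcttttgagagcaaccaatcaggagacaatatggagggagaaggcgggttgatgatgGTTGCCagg
Ift20: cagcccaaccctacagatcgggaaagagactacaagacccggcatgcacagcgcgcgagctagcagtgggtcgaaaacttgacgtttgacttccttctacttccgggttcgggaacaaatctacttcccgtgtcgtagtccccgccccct
Arl3: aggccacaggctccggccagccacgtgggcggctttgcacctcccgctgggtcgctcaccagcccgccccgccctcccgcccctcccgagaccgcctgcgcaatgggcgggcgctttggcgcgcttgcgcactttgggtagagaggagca
Ift140: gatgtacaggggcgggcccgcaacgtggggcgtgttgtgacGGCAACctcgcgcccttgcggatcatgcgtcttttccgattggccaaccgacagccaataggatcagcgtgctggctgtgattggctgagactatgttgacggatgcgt
Kif3a: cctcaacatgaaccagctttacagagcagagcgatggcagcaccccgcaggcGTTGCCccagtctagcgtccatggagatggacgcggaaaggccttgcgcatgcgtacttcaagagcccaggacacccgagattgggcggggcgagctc
Of these 5, the half-site lies in *Ift27*, *Ift140* and *Kif3a*, and not in this window of *Ift20* and *Arl3*.

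Over whole promoters, the half-site on either strand was found in 17 of the 33 genes (51.5%), where 12.5% of all 32851 promoters in the table hold it, and 14.1% of the genes have a promoter that does. A paired site, GTTNCC and GGNAAC in that order with 0 to 3 bases between them, was found in 5 of 33 (15.2%), in 0.804% of all promoters and for 0.936% of the genes, and each of the 5 also counts as a half-site. In 4 of the 5 it lies before the start, and these are shown with the paired site in capitals, from chr3:36613474-36613533 (minus) for *Bbs7*, chr16:49699210-49699269 (plus) for *Ift57*, chr11:87853168-87853214 (plus) for *Mks1* and chr19:40612336-40612395 (minus) for *Tctn3*.
Bbs7: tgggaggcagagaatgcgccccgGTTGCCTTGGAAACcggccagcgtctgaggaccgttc
Ift57: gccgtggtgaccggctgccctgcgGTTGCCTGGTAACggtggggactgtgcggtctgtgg
Mks1: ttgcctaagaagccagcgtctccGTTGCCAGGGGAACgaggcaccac
Tctn3: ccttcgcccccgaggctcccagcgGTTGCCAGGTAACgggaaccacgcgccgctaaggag
The fifth, *Tctn1*, has its match after the start and is not shown. The TTTGAA letters of the cell-cycle homology region, on either strand, were found in 0 of the 33, in 17.9% of all promoters and for 20.2% of the genes. The ciliary promoters are richer in G and C, with a median of 59.8% against 52.7%, and the part of this in the shares was not tested. The class test called 6 of the 17 genes with the half-site and 6 of the 16 without it.

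The IFT-B core trains carry cargo outward and are built around proteins such as *Ift88*, *Ift52* and the tubulin-binding pair *Ift81* and *Ift74*. All 7 have rows, 2 were called over the classes, and both were lower in the G1/G0 arc. *Ift27* (chromosome 15, 78159463 to 78174107), a small GTPase of the train that also takes part in BBSome exit, had a mean of 0.955 in the arc and 1.29 in the rest in culture 1, and of 0.843 and 1.29 in culture 2. Its class means rose from 0.931 at 1.75π to 2π to 1.48 at 1.25π to 1.5π in culture 1, and from 0.819 at 0 to 0.25π to 1.40 at 1π to 1.25π in culture 2. The highest class of culture 1 holds only 85 cells, and the mean was 1.47 in its 1064 cells at 1π to 1.25π. Both cultures were thus lower in the arc, by a ratio of 0.737 and 0.652. The fitted difference was -0.29 ± 0.024 (SE) on the log2(value + 1) scale, with an adjusted p of 9.42e-08 from limma, and *Ift27* was called in the same direction under all 12 other settings with this contrast.

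*Ift74* (chromosome 4, 94614491 to 94693229) had a mean of 0.599 in the arc and 0.637 in the rest in culture 1, and of 0.484 and 0.616 in culture 2. The step was larger in culture 2, and the class profiles of the cultures were hardly alike (r = 0.10 over 8 classes). The fitted log2 difference was -0.088 ± 0.020 (SE, adjusted p = 0.00193), and 3 of 12 other settings did not call it, with adjusted p from 0.0524 for unweighted class means to 0.112 in cells between the quartiles of total UMIs. The annotation places the microRNA gene *Mir872* within *Ift74* on the same strand. The other 5 core genes did not pass either test. Their fitted log2 differences lay between -0.028 for *Ift22* and 0.026 for *Ift52*, and *Ift52* was called higher when class means were linear (0.19 ± 0.065, adjusted p = 0.0217). Summed over the core, the arc had 0.908 of the level of the rest in culture 1 and 0.832 in culture 2, and 1.02 and 0.952 without *Ift27*. Without that gene the sum was thus no longer lower in culture 1, and a smaller part of the difference remained in culture 2.

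Of the 4 peripheral IFT-B proteins, which bind the core and kinesin-II, 1 was called higher and 1 lower. *Ift20* (chromosome 11, 78536361 to 78541737), which also works at the Golgi in sending membrane proteins to the cilium, had a mean of 1.33 in the arc and 1.04 in the rest in culture 1, and of 1.32 and 1.03 in culture 2. Its lowest class mean was at 0.75π to 1π in both cultures, 0.969 and 0.886. The highest was in the arc in culture 2 (1.36 at 0 to 0.25π), and outside it in culture 1, in the 85 cells at 1.25π to 1.5π (1.57), while over the whole arc the cultures were higher by nearly the same ratio, 1.28 and 1.29. The fitted log2 difference was 0.16 ± 0.022 (SE, adjusted p = 2.21e-05), and all 12 other settings called it higher.

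*Ift80* (chromosome 3, 68892499 to 69004570), an IFT-B protein linked to skeletal ciliopathies, went the other way at a low level. It was above 0 in 6.38% of cells of culture 1 and 4.42% of culture 2, with a mean of 0.0397 in the arc and 0.0609 in the rest in culture 1, and of 0.0289 and 0.0636 in culture 2. Its highest class mean was at 1π to 1.25π in both (0.0703 and 0.0891). The fitted log2 difference of -0.030 ± 0.0046 (SE, adjusted p = 6.46e-05) became -0.41 on linear class means. In the annotation 4 other genes overlap *Ift80* on its strand. *Ift57* and *Ift172* did not pass either test, with fitted log2 differences of -0.048 and -4.4e-05.

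**Figure D3:**
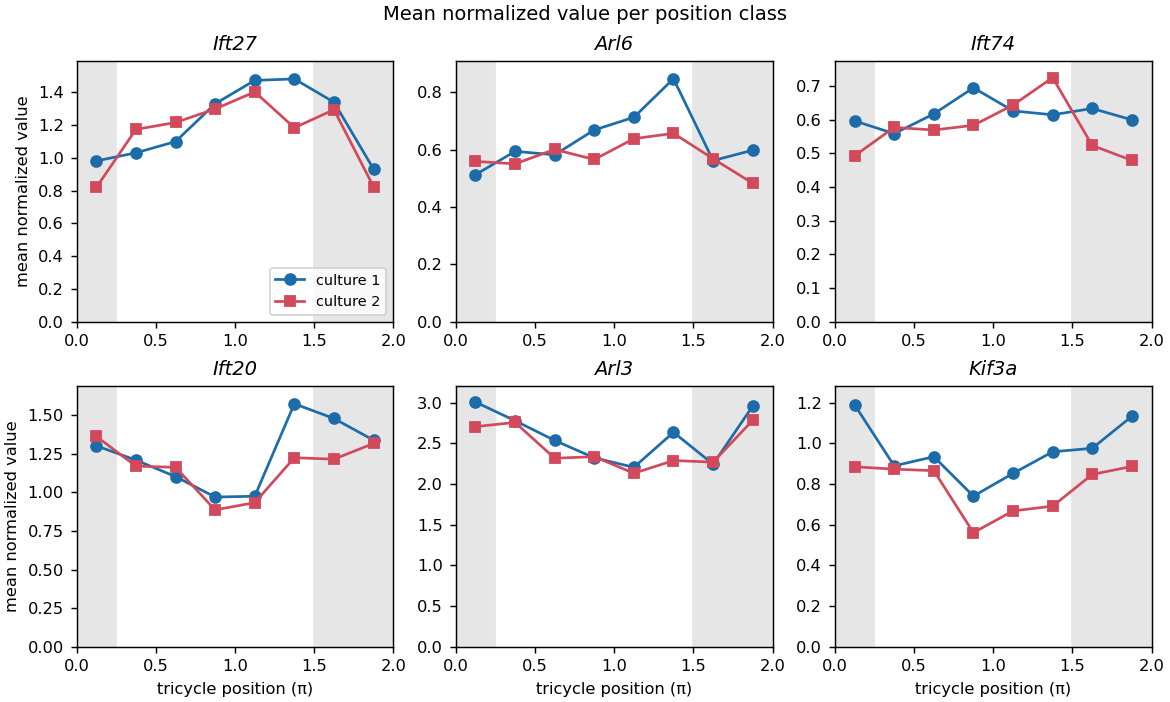
Mean normalized value (y axis, from 0) per position class (x axis, in units of π) of 6 called genes in culture 1 (circles) and culture 2 (squares), with the G1/G0 arc shaded. *Ift27* is lowest at 0 to 0.25π or 1.75π to 2π, while *Ift20*, *Arl3* and *Kif3a* are lowest between 0.75π and 1.25π in both cultures.

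IFT-A, the return train that also imports membrane receptors, had 5 of 5 genes with rows, 2 of them called over the classes and neither called in the arc contrast. *Ift140* (chromosome 17, 25016085 to 25099495) had its highest class mean at 0.5π to 0.75π, 0.0724 in culture 1 and 0.0759 in culture 2, and its lowest at 1.5π to 1.75π, where it was listed at 0 in all 64 cells of culture 1, which allows a share of up to 4.69% of cells with a UMI and sets no limit on cells that express the gene, and averaged 0.0158 over the 189 cells of culture 2. The profiles of the cultures were closely alike (r = 0.982), with an adjusted p of 0.000291 from the class test. *Ift140* was above 0 in only 6.23% of cells of culture 1 and 4.75% of culture 2, and its low end rests on classes of few cells. The protein-coding gene *Tmem204* overlaps it on the other strand.

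*Ift43* (chromosome 12, 86082541 to 86162459) had a mean of 0.740 in the arc and 0.634 in the rest in culture 1, and of 0.695 and 0.615 in culture 2. The class test called it (adjusted p = 0.0259), and the arc contrast did not on the main scale (0.049 ± 0.020 on the log2 scale, adjusted p = 0.0581) but did on linear class means (0.19, adjusted p = 0.00965). The highest class mean of *Ift43* was in the arc in culture 1 (0.754 at 1.75π to 2π) and outside it in culture 2 (0.765 at 0.5π to 0.75π). *Ift122*, *Wdr19* and *Wdr35* passed neither test, and the direction of *Ift122* and *Wdr35* differed between cultures.

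Kinesin-II, the outward motor, is a trimer of *Kif3a*, *Kif3b* and the accessory subunit *Kifap3*. *Kif3a* (chromosome 11, 53567379 to 53601967) had a mean of 1.14 in the arc and 0.843 in the rest in culture 1, and of 0.884 and 0.715 in culture 2. Its lowest class mean was at 0.75π to 1π in both (0.740 and 0.560), and the arc was higher by a ratio of 1.36 and 1.24. On the log2 scale it differed by 0.14 ± 0.021 (SE, adjusted p = 6.71e-05), and it lost its call only in the fit without a culture term (adjusted p = 0.346). *Kif3b* and *Kifap3* were 0.023 ± 0.011 and 0.039 ± 0.019 on the same scale (adjusted p = 0.0972 and 0.115). On linear class means all 3 subunits were called higher, with log2 differences of 0.36, 0.18 and 0.15.

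Dynein-2 returns the trains. *Dync2h1* (chromosome 9, 6928503 to 7184446), its heavy chain, had a mean of 0.154 in the arc and 0.209 in the rest in culture 1, and of 0.143 and 0.148 in culture 2, so that nearly all of the difference came from culture 1. The fitted log2 difference was -0.034 ± 0.011 (SE, adjusted p = 0.017), which 6 of 12 other settings did not call, among them linear class means (adjusted p = 0.101) and unweighted class means (adjusted p = 0.183). Its partner *Dync2li1* lay in the other direction, at 0.034 ± 0.014 (adjusted p = 0.0651), and was called higher on linear class means (0.27 ± 0.087, adjusted p = 0.0162). Summed over the 5 motor genes, the arc had 1.19 times the level of the rest in culture 1 and 1.17 times in culture 2.

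The BBSome, an octamer that ferries membrane proteins out of the cilium, was sparsely detected. Its 6 genes with rows were above 0 in 3.60% to 16.9% of cells of culture 1 and 2.14% to 10.4% of culture 2. *Bbs1* (chromosome 19, 4886878 to 4906628), the subunit that contacts *Arl6*, had a mean of 0.0263 in the arc and 0.0322 in the rest in culture 1, and of 0.0182 and 0.0292 in culture 2. It was lower in the arc in both, with a fitted log2 difference of -0.0092 ± 0.0028 (SE, adjusted p = 0.0134) that 5 of 11 other settings did not call. The other 5 subunits passed neither test, and *Bbs2* and *Bbs9* differed in direction between cultures.

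Among the small GTPases, *Arl3*, which releases lipid-anchored cargo inside the cilium, and *Arl6*, which recruits the BBSome to membranes, varied in opposite directions. *Arl3* (chromosome 19, 46531096 to 46573198) was above 0 in 91.6% of cells of culture 1 and 84.9% of culture 2. Its mean was 2.95 in the arc and 2.39 in the rest in culture 1, and 2.74 and 2.31 in culture 2, with the lowest class mean at 1π to 1.25π in both (2.21 and 2.13). The arc was higher by a ratio of 1.23 and 1.19. Its log2 difference was 0.18 ± 0.024 (SE, adjusted p = 1.97e-05), called higher under all 12 other settings.

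*Arl6* (chromosome 16, 59612949 to 59639391) had a mean of 0.574 in the arc and 0.660 in the rest in culture 1, and of 0.502 and 0.607 in culture 2. The highest class mean was at 1.25π to 1.5π in both (0.847 and 0.657), a class of only 85 cells in culture 1 and 279 in culture 2. The arc was lower by a ratio of 0.870 and 0.827. On the log2 scale the fit gave -0.089 ± 0.021 (SE, adjusted p = 0.00245), and the call was lost with no culture term (adjusted p = 0.0752). *Arl13b*, the exchange factor of *Arl3*, was at -0.031 ± 0.014 and did not pass (adjusted p = 0.0855).

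**Figure D4:**
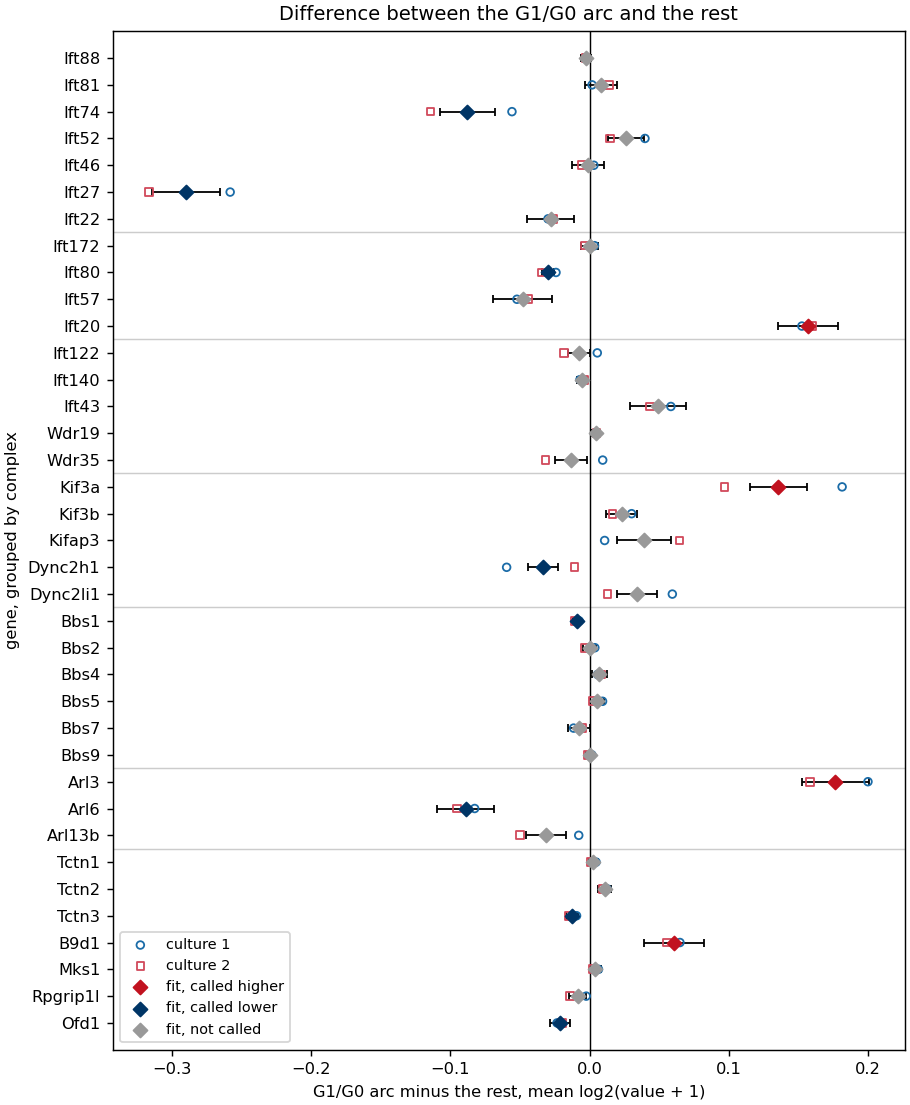
Difference between the G1/G0 arc and the rest in mean log2(value + 1) (x axis) for each of the 37 genes (y axis, grouped by complex). Diamonds are fitted values with SE bars, circles culture 1 and squares culture 2. *Ift27* is at -0.29, *Arl3*, *Ift20* and *Kif3a* lie between 0.14 and 0.18, and the 25 genes not called in this contrast lie between -0.048 and 0.049.

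The transition zone and basal body genes had 7 of 8 with rows. *B9d1* (chromosome 11, 61505144 to 61512931), a B9-domain protein of the gate, had a mean of 0.576 in the arc and 0.476 in the rest in culture 1, and of 0.540 and 0.452 in culture 2. The arc contrast called it higher (0.060 ± 0.022 on the log2 scale, adjusted p = 0.0319), and the class test did not (adjusted p = 0.216), with profiles that were not alike between cultures (r = -0.0585). The arc call was lost in 5 of 12 other settings, with adjusted p up to 0.246.

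*Tctn3* (chromosome 19, 40596446 to 40612233), one of the tectonics of the gate, had a mean of 0.0428 in the arc and 0.0494 in the rest in culture 1, and of 0.0322 and 0.0479 in culture 2. It was above 0 in 5.64% of cells of culture 1 and 3.57% of culture 2. Its highest class mean was at 0.5π to 0.75π in both (0.0606 and 0.0574), and its fitted log2 difference was -0.013 ± 0.0042 (SE, adjusted p = 0.0241). *Ofd1* (chromosome X, 166390033 to 166440704), a protein of the distal centriole, had a mean of 0.113 in the arc and 0.129 in the rest in culture 1, and of 0.111 and 0.127 in culture 2. Its lowest class mean was outside the arc in both cultures, at 0.5π to 0.75π (0.0844 and 0.1001). The highest was in the arc in culture 1, in the 64 cells at 1.5π to 1.75π (0.229). In culture 2 the highest was outside the arc, at 1π to 1.25π (0.144). The fitted log2 difference of *Ofd1* was -0.021 ± 0.0070 (SE, adjusted p = 0.0212), and *Trappc2* overlaps it on the other strand. Neither *Tctn3* nor *Ofd1* was called on linear class means (adjusted p = 0.056 and 0.142), and in all 6 of 11 other settings did not call *Tctn3* and 5 of 12 did not call *Ofd1*, those with 12 classes, unweighted class means or no culture term among them. *Tctn1*, *Tctn2*, *Mks1* and *Rpgrip1l* passed neither test, and *Tctn2* alone of them was called higher on linear class means (0.19, adjusted p = 0.0372).

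Complex by complex, the summed level was higher in the arc than in the rest in both cultures for 5 of the 7 groups. The ratio in culture 1 and culture 2 was 1.14 and 1.13 for peripheral IFT-B, 1.14 and 1.04 for IFT-A, 1.06 and 0.992 for the BBSome, 1.14 and 1.09 for the small GTPases, and 1.13 and 1.07 for the transition zone. Single genes weighed heavily in several of these sums. Without its most abundant gene, *Ift20*, peripheral IFT-B was at 0.918 and 0.878, and without *Arl3* the small GTPases were at 0.908 and 0.832. Without the most abundant gene of each culture, IFT-A was at 1.09 and 0.886 and the transition zone at 1.03 and 0.931. Over all 37 genes the ratio was 1.09 and 1.03, and 1.052 and 0.995 without *Arl3*.

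**Figure D5:**
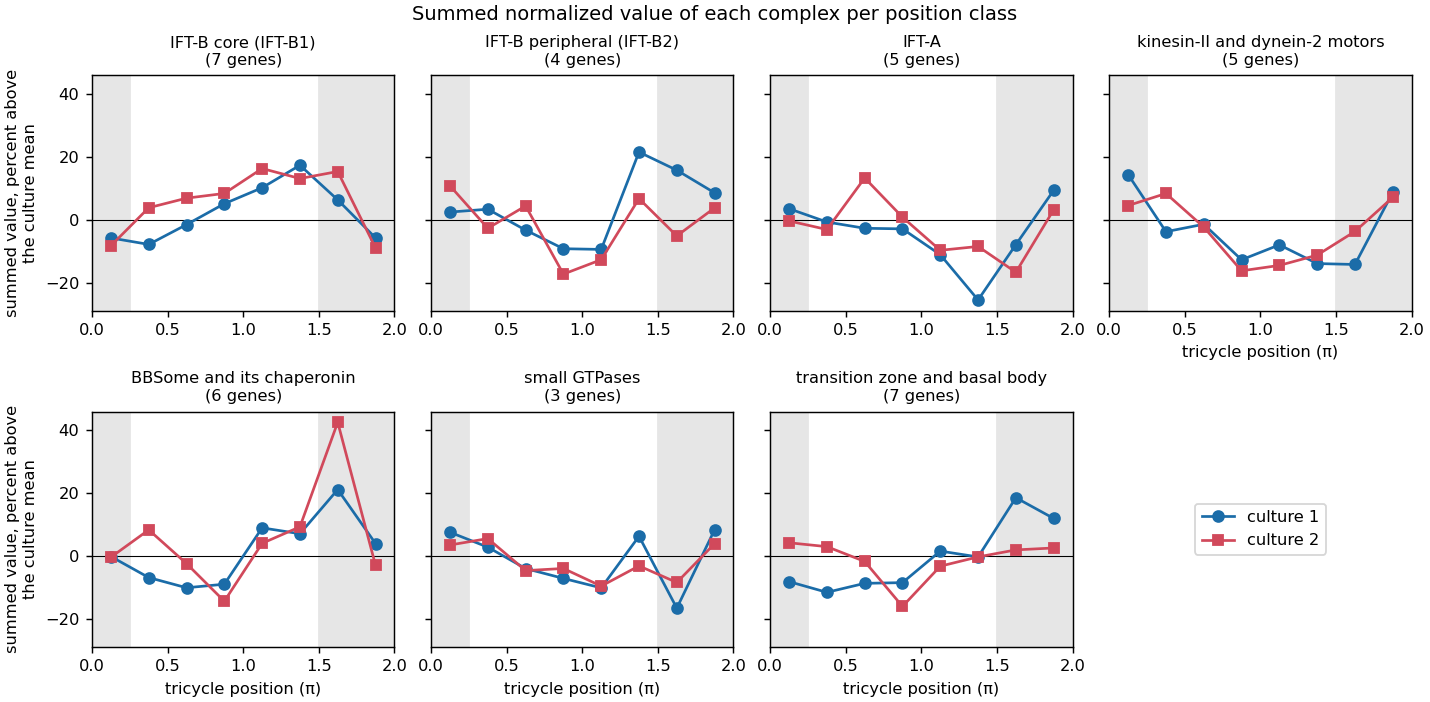
Summed normalized value of each group of genes per position class, as percent above the mean of the culture (y axis), against position (x axis, in units of π), for culture 1 (circles) and culture 2 (squares), with the G1/G0 arc shaded. The IFT-B core is above its mean from 0.75π to 1.75π in both cultures and the motors are below theirs from 0.5π to 1.75π. The class at 1.5π to 1.75π holds 64 and 189 cells.

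Genes around these complexes were read from other lists, chosen with earlier results of these data known. Their counts stand beside 46.4% of all genes called over the classes, 18.5% higher and 27% lower in the arc. Of 16 further IFT, BBSome and dynein-2 genes with rows, 3 were called over the classes, 5 were higher in the arc and 0 lower in limma (1 lower at an unadjusted p below 0.05), with the same counts on linear class means. *Hspb11*, the partner of *Ift27* in the train, had a mean of 1.20 in the arc and 1.001 in the rest in culture 1, and of 1.26 and 0.954 in culture 2 (0.14 ± 0.020 on the log2 scale, adjusted p = 4.61e-05). *Hspb11* was thus higher where *Ift27* was lower. *Dynlrb1*, a light chain shared with cytoplasmic dynein, was also higher (0.21 ± 0.026, adjusted p = 7.96e-06).

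Of the 22 further transition zone and ciliary membrane genes with rows, 14 were called over the classes, 14 were lower in the arc and 1 was higher, with a median log2 difference of -0.026. On linear class means 9 were lower and 1 was higher. *Tmem138*, *Tmem237* and *Cep290*, a scaffold of the gate, had the smallest p. *Cep290* had a mean of 0.244 in the arc and 0.341 in the rest in culture 1, and of 0.234 and 0.374 in culture 2 (-0.11 ± 0.014, adjusted p = 1.15e-05). Of 14 distal appendage and initiation genes, 11 were called over the classes 11 were lower in the arc, 1 was higher, and the median was -0.083. *Cep89*, a protein of the distal appendages that anchor the cilium, was at 0.257 of the level of the rest in culture 1 and 0.212 in culture 2.

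Of 7 genes that take part in cilium disassembly 6 were lower in the arc, led by *Ccnf* and the mitotic kinase *Aurka*, which was at 0.0595 and 0.0498 of the level of the rest. Cell-cycle genes were the input of the projection. Whether *Aurka*, *Ccnf* or other genes of these lists were among them is not given in the sources used here. The difference of any that were is in part set by construction. Of 12 Hedgehog pathway genes 2 were called over the classes and 2 were lower in the arc, with only *Gli3* in both sets. *Gli3*, a transcription factor of the pathway, was at 0.441 and 0.478 of the level of the rest. Among 5 RFX genes, *Rfx4* had a mean of 2.83 in the arc and 1.94 in the rest in culture 1, and of 1.996 and 1.70 in culture 2 (0.18 ± 0.055 on the log2 scale, adjusted p = 0.0161), and *Rfx2* was called lower at a low level (-0.0090 ± 0.0035, adjusted p = 0.0463, and 0.120 on linear class means). Whether the IFT and BBSome genes differ from these lists was not tested.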

How the data were processed

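Members and lists were chosen with earlier results of these data known. By the methods, the authors quantified spliced counts with alevin (Salmon 1.3.0 in the submitters' processing notes) against GRCm38 and removed low-content and outlying cells (by doublet score too), genes of the mitochondrion and those found in few cells. No further cell filter or doublet caller was used here. The deposited expression values are a signal, normalized by the authors to a nearly equal sum per cell on a linear scale, and which of the authors' matrices they are is not given in the sources used here. After a factor for each cell, estimated here on rarely detected genes, was taken out, values of such a gene within a culture were near-whole multiples of a step (94.7% and 94.3% of values within 0.1 of a whole number of steps), but for 59.0% of 5021 genes the step differed by over 1.1 times between cultures. Hence no counts were used, levels were not compared between cultures, and thinning to a fixed depth was not possible. The authors' per-cell table gives position, stages and other values, with total UMIs as deposited sums of estimated counts.

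The mean of log2(value + 1) over cells was taken in each culture and class, giving 16 means per gene. They were fitted in limma 3.58.1 (R 4.3.3) with class and culture as terms, weights by number of cells and a variance trend, leaving 7 residual degrees of freedom. P-values were adjusted by Benjamini-Hochberg over all 10666 genes, and a call is an adjusted p below 0.05. Cells were not treated as replicates. With 2 cultures an exact sign-flip test cannot go below p = 0.5, so the p-values rest on the model and measure the spread between these 2 libraries. Shares of cells above 0 depend on depth and were not compared between cultures. No cell type known to lack these genes was available, so free RNA was not assessed. Symbols were matched for 10662 genes. Gene coordinates are from GENCODE vM21 (GRCm38), and the authors used a later release. The fit was tested on simulated data. Genes given in full are those called over the classes, with *B9d1* added by the arc contrast after its values were seen. The lists of genes around the complexes name at most 3 genes each by the smallest class p. Genes of the cell type marker lists were not all named by this rule. Python 3.11.15 with numpy 2.4.6, pandas 2.3.3 and scipy 1.17.1 was used.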

Additional observations from a re-analysis of the deposited data

How the results depend on the processing

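The alternatives left the direction of all 14 described genes as it was in 166 of 166 fits of the arc contrast, with 129 on the same side of the threshold. These fits reuse the same cells or parts of them, and the 14 genes were picked by the main fit, so they are not independent checks. The fit limited to genes above 0 in at least 5% of cells keeps the same class means. Its direction was therefore fixed in advance. *Ift27*, *Ift20*, *Arl3* and *Ift80* kept their call in every one. With no replicate block (the culture term) there were 4 class calls where the fit with it gave 13, with 2 called higher and 2 lower. Over all genes this fit gave 1792 class calls in place of 4947. It gave 733 calls higher (6.87%) in place of 1969, and 1961 lower (18.4%) in place of 2885. Unweighted class means gave 3 ciliary genes called higher, and 1140 of all genes (10.7%). Calls higher in the arc numbered 10 on linear class means (25.5% of all genes), 9 on class means weighted by total UMIs (25.2%, added after seeing the data) and 8 with a single harmonic (22.0%), against 4 (18.5%). Calls lower numbered 5 on linear (22.2% of all genes) and on UMI-weighted class means (23.3%), 3 with unweighted class means (19.1%) and 4 in cells between the quartiles of total UMIs (21.1%), and rose to 10 with a single harmonic (30.1%) and 12 with a pseudocount of 0.1 (33.3%), against 8 (27.0%). The cause was not tested. At an R² of 0.02 in both cultures 1 gene passed (8.34% of all genes) and at 0.01 there were 3 (14.9%), with 0 at 0.05 in either culture alone. Leaving out the 532 cells with *Dcx* or the cells with shared barcodes, also added later, gave 13, 4 and 8 again. The planned filter on neuroblast cells could not be run because the table holds 1 of its 7 markers. With 1 culture left out the class fit has no residual degrees of freedom, and 4 classes give no arc contrast. For genes above 0 in few cells, depth limits what could be called.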
